A study of Caenorhabditis elegans with 4 samples.

Results

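The 58 genes described here are genes of Caenorhabditis elegans that carry no name beyond the sequence name given when the genome was read, and whose transcripts were likely more abundant in larvae of the third stage, L3, than in a mixed reference RNA on every array of the series. They were taken from 5812 sequence-named genes among 14958 genes on the array. The genes were chosen by their measured ratios: a gene was taken when its log2 ratio lay above 1.2, which is 2.30-fold, in each of 4 L3 preparations. These same ratios are given below, so their height is a description and was not tested. Because a value was needed on every array, 5650 of the sequence-named genes could qualify, and 58 of them (1.03%) did. Among genes with a name the same rule held for 177 of 8913 (1.99%), and over all genes and unnamed probes for 266 of 19201 (1.39%).

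Wild-type L3 RNA was hybridised on 2-colour arrays against a wild-type mixed reference RNA, 1 numbered preparation to each of 4 arrays, with L3 in the second channel and the reference in the first. Neither the makeup of the reference nor the growth of the cultures is given in the sources used here. The dyes are not labelled. L3 over reference is the likely direction, taken from the wording of the sample descriptions. Whole animals were used, so more cells of a type and more RNA per cell cannot be told apart.

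A sequence name such as C29F3.7 joins the name of the genomic clone, here C29F3, with a number for the gene predicted on it. Genes keep such a name until a mutant, a product or a family gives them another, so the names say where genes lie and not what they do. Genes on 1 clone are near neighbours, and in nematodes related genes often lie side by side after local duplication. An L3 larva has 1 more larval stage ahead of it; its gonad is still growing, and yolk and eggshells are made only in the adult. Markers of adults and eggs were read beside the labelled stage. This check takes the likely direction of the ratio as given, and it cannot tell L3 from other larval stages. The yolk protein genes vit-2, vit-5 and vit-6, the yolk receptor gene rme-2, the eggshell genes cpg-2 and perm-2 and the adult cuticle collagen gene col-19 had mean log2 ratios between -6.32 and -3.54, and all 7 lay below 0 on every array.

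As a set the 58 genes had a median mean log2 ratio of 2.09 (4.25-fold), beside 0.03 over all sequence-named genes. Their means ran between 1.30 and 3.64. Of the 58 genes, 26 had a mean below 2, 23 a mean between 2 and 3, and 9 a mean of 3 or more. A value above 2 (4-fold) in every preparation was reached by 11 genes, and a value above 3 (8-fold) in every preparation by 1 gene, C29F3.7. Values below are log2 ratios, given for preparations 1, 2, 3 and 4 in that order, with mean ± SD over the preparations (n = 4).

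**Figure D1:**
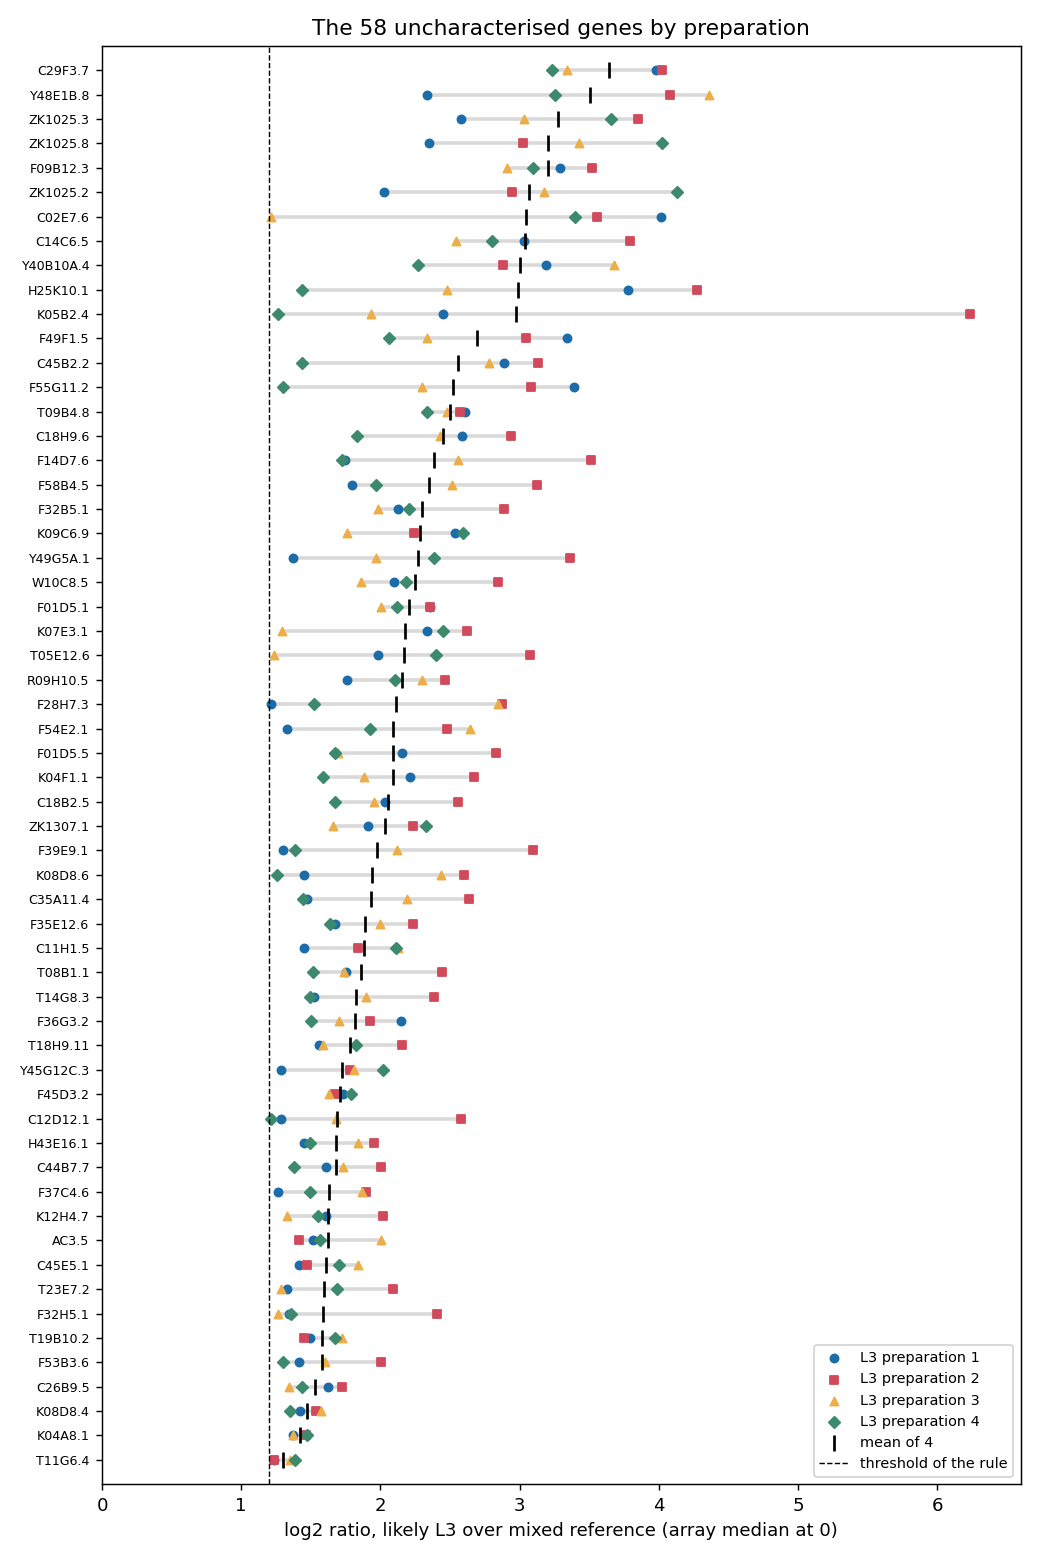
Log2 ratios (likely L3 over mixed reference, array median at 0) of the 58 genes, ordered by their mean; each symbol is 1 L3 preparation, the black tick is the mean of 4 and the grey line the range. The dashed line is the threshold of 1.2 that chose the genes. K05B2.4 has the widest range, and preparation 2 (squares) is the highest value of 36 genes.

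C29F3.7 had the highest mean of the set, with 3.98, 4.02, 3.34 and 3.23 (3.64 ± 0.42, 12.5-fold). It stood among the 10 highest of the 58 genes in every preparation, as F09B12.3 did, and no other gene of the set did so. F09B12.3, on chromosome X, had 3.29, 3.52, 2.91 and 3.10 (3.21 ± 0.26). The SD of C29F3.7 lay at the median of the 58 genes, 0.42, and that of F09B12.3 below it.

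Y48E1B.8, on chromosome II, came next by its mean, with 2.33, 4.08, 4.36 and 3.26 (3.51 ± 0.91, 11.4-fold). Preparation 1 was its lowest value. The genes ZK1025.3, ZK1025.8 and ZK1025.2 of 1 clone on chromosome I also stood among the 6 highest means. ZK1025.3 had 2.58, 3.85, 3.03 and 3.66 (3.28 ± 0.59). ZK1025.8 had 2.35, 3.03, 3.43 and 4.03 (3.21 ± 0.71). ZK1025.2 had 2.03, 2.94, 3.18 and 4.13 (3.07 ± 0.86). In each of these 3 genes preparation 1 was the lowest, and in ZK1025.8 and ZK1025.2 preparation 4 was the highest.

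C14C6.5 and C02E7.6, both on chromosome V, had similar means. C14C6.5 had 3.03, 3.79, 2.54 and 2.80 (3.04 ± 0.54). C02E7.6 had 4.02, 3.56, 1.22 and 3.40 (3.05 ± 1.25), so that 3 preparations stood far above the threshold and preparation 3 only just passed it. Y40B10A.4, which RefSeq lists as a pseudogene, had 3.19, 2.88, 3.68 and 2.27 (3.01 ± 0.59). The order is by mean, so its place among protein-coding genes follows from the ranking. Y40B10A.4 was read by 1 probe, and whether that probe reads related transcripts was not tested.

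H25K10.1 and F49F1.5, on chromosome IV, and K05B2.4, on chromosome X, completed the 12 highest means. H25K10.1 had 3.78, 4.28, 2.48 and 1.44 (2.99 ± 1.28), high in preparations 1 and 2 and lower in 3 and 4. F49F1.5 had 3.34, 3.05, 2.34 and 2.06 (2.70 ± 0.60), also higher in preparations 1 and 2, by a mean of 0.99, a difference that was 0.13 with the arrays scaled to a common spread. K05B2.4 had 2.45, 6.24, 1.93 and 1.27 (2.97 ± 2.23), and the value in preparation 2 was the highest of any of the 58 genes on any array. Its place in the order by mean rests on that preparation, since its other 3 values lay between 1.27 and 2.45 and its mean without preparation 2 was 1.88.

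The remaining 46 genes had means between 1.30 and 2.56. Near the top of these stood C45B2.2 (2.56 ± 0.76), F55G11.2 (2.52 ± 0.93), T09B4.8 (2.50 ± 0.12) and C18H9.6 (2.45 ± 0.46). They were followed by F14D7.6 (2.39), F58B4.5 (2.35), F32B5.1 (2.30), K09C6.9 (2.28), Y49G5A.1 (2.27), W10C8.5 (2.25), F01D5.1 (2.21), K07E3.1 (2.17), T05E12.6 (2.17) and R09H10.5 (2.16). Means around 2 were measured for F28H7.3 (2.11), F54E2.1, F01D5.5 and K04F1.1 (2.09 each), C18B2.5 (2.05), ZK1307.1 (2.03) and F39E9.1 (1.98). T09B4.8 stood out among these by its small spread, with 2.61, 2.57, 2.48 and 2.33. The lower part of the order held K08D8.6 and C35A11.4 (1.94 each), F35E12.6 (1.89), C11H1.5 (1.88), T08B1.1 (1.86), T14G8.3 and F36G3.2 (1.82 each), T18H9.11 (1.78), Y45G12C.3 (1.72), F45D3.2 (1.71) and C12D12.1 (1.69). H43E16.1 and C44B7.7 (1.68 each), F37C4.6 and K12H4.7 (1.63 each), AC3.5 (1.62), C45E5.1 (1.61), T23E7.2 (1.6), F32H5.1 (1.59), T19B10.2 and F53B3.6 (1.58 each), C26B9.5 (1.53), K08D8.4 (1.47), K04A8.1 (1.42) and T11G6.4 (1.30) closed it. Besides Y40B10A.4, the genes K04F1.1, F39E9.1 and T18H9.11 are listed as pseudogenes. That makes 4 pseudogenes among the 58 genes (6.90%), beside 346 of 5650 sequence-named genes measured (6.12%) and, for genes with a name, 1 of the 177 that passed the same rule (0.565%) and 181 of 8913 measured (2.03%).

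The genes differed widely in how far the preparations lay apart. The SD over preparations had a median of 0.42 and ran between 0.056 and 2.23, with 9 genes under 0.2 and 10 over 0.8. The median SD was 0.35 over all sequence-named genes and 0.49 over the genes with a name that passed the rule. The steadiest gene was K04A8.1, with 1.37, 1.47, 1.37 and 1.47 (1.42 ± 0.056). F45D3.2 had 1.73, 1.67, 1.63 and 1.79 (1.71 ± 0.067), and T11G6.4 had 1.23, 1.24, 1.35 and 1.39 (1.30 ± 0.079). All 3 of these steady genes had means below the median of the 58, and they left the set, with 5 others, when the arrays were scaled to a common spread (50 of the 58 genes stayed). The widest spreads were those of K05B2.4, H25K10.1 and C02E7.6, all among the 12 highest means. The rule holds every value above 1.2, so a gene of the set with a wide spread must also have a raised mean. This link between spread and mean thus follows from the choice of the genes.

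Preparation 2 gave the highest value for 36 of the 58 genes, and preparations 1, 3 and 4 for 6, 8 and 8. The lowest value fell in preparation 4 for 23 genes, in preparation 1 for 18, in preparation 3 for 15 and in preparation 2 for 2. The medians over the 58 genes were 1.76, 2.58, 1.95 and 1.69 in preparations 1 to 4. The arrays differed in the same way over all probes, where the median absolute deviation was 0.38, 0.58, 0.39 and 0.28. Read as percentiles among all probes of an array, the medians of the 58 genes were 97.8, 97.8, 97.6 and 98.2. The set thus stood at about the same height of each array's distribution. The rule held each gene above the threshold on every array, so this is a description. The threshold of 1.2 itself was passed by 5.02%, 10.9%, 6.56% and 3.95% of the probes, and was therefore strictest on array 4.

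The order of the 58 genes was shared only in part between preparations. Spearman correlations over the genes lay between 0.33, for preparations 3 and 4, and 0.61, for preparations 1 and 2. The rule cuts off low values in every preparation and all preparations share the reference RNA, so these correlations describe the set and were not tested.

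**Figure D2:**
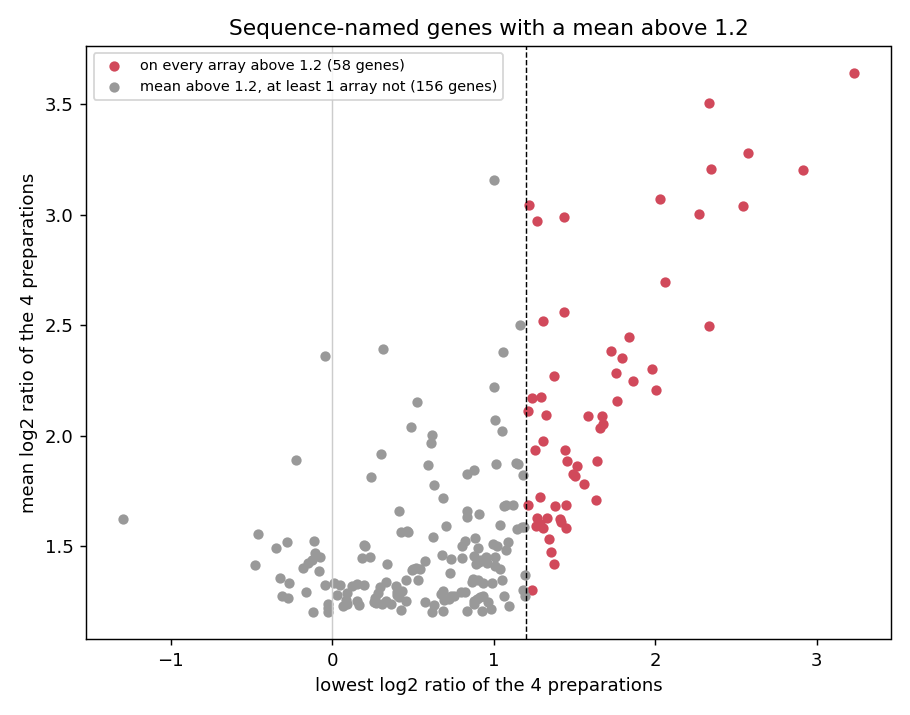
Mean log2 ratio of the 4 preparations against the lowest of the 4, for the 214 sequence-named genes with a mean above 1.2 and a value on every array. The dashed line marks the threshold; the 58 genes lie to its right and 156 genes with at least 1 preparation at or below it lie to its left.

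The threshold divided a continuous range. Just inside it lay F28H7.3, C12D12.1 and C02E7.6, whose lowest values were 1.21, 1.21 and 1.22; C12D12.1 and C02E7.6 fell outside with the values as deposited. Just outside lay R102.4 (lowest value 1.196), ZK899.2 (1.19) and C14B9.2 (1.19). The rule asks for height in every preparation and not for a high mean: of 214 sequence-named genes with a mean above 1.2, 156 were left out because at least 1 preparation fell short. Exactly 3 preparations passed for 73 genes, not all of them among the 214. C31H2.4, T24C12.4 and H23N18.5 had means below 1.2, and C44C10.11 had no value in preparation 2. The missing preparation was 4 for 29 genes, 3 for 20, 1 for 19 and 2 for 5, with C44C10.11 among these 5. The highest mean among these 73 was that of C02E7.7 (3.16 ± 1.53), the gene next to C02E7.6.

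Of the 58 genes, 54 were read by 1 probe and 4 by several. The 9 probes of these 4 genes were all high, and 7 of them lay above the threshold on every array by themselves. C11H1.5 had 3 probes with means of 2.32, 1.79 and 1.54, which differed by up to 0.785. C35A11.4 had 2 probes with means of 2.18 and 1.69. H43E16.1 had 2 probes at 1.78 and 1.59, and F01D5.5 had 2 at 2.15 and 2.03. The probes of 1 gene gave the same direction, but the genes were chosen by the average of these probes, which favours such agreement. In a single preparation 1 probe each of C11H1.5 and C35A11.4 fell just below the threshold, at 1.15 and 1.196.

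The titles of the arrays carry 1 month for preparations 1 and 2 and another for preparations 3 and 4; what the date marks is not given. The choice of the genes did not use the difference between these pairs of preparations, but it asked for a value above 1.2 in each preparation. A gene low in 1 pair could therefore not be in the set, which limits a comparison of the 58 genes with all features. The difference was tested across all 19201 genes and probes. The test called 0 of the 58 genes, beside a background of 0% of all features tested (limma, two-sided, Benjamini-Hochberg adjusted p under 0.05). At an unadjusted p under 0.05 it gave 4 of the 58 genes and 1328 of the 19201. In data simulated with each gene's own SD over the 4 arrays, the same test called 0 of 50 genes changed by 16-fold. That SD also holds any difference between the pairs, so this setting can understate what the test finds. With an SD of 0.2 for every gene the test called 50 of 50 changed by 4-fold. The sizes below are a description.

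**Figure D3:**
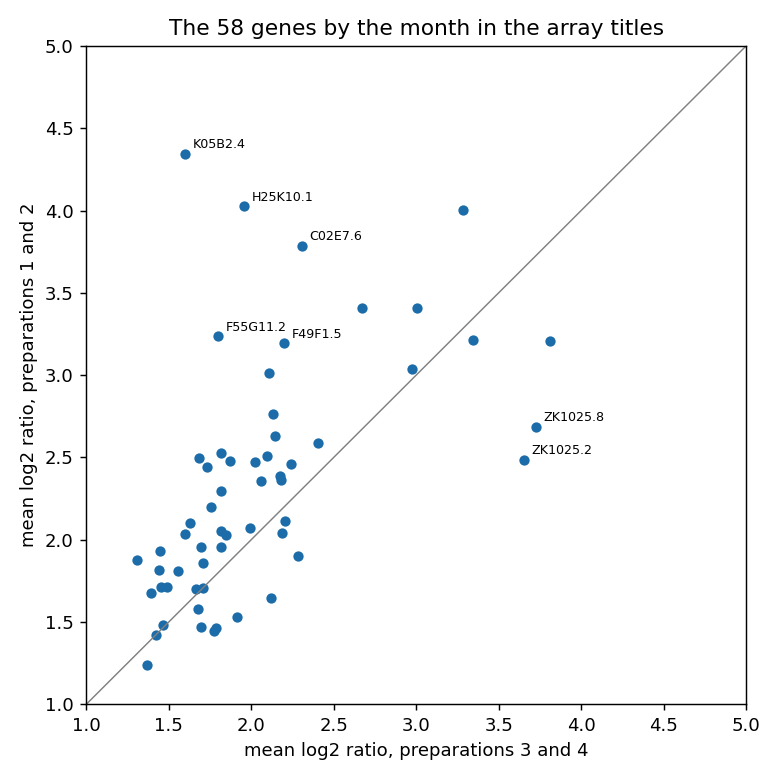
Mean log2 ratio of preparations 1 and 2 (vertical axis) against that of preparations 3 and 4 (horizontal axis) for the 58 genes on median-centred arrays; the line marks equal values. K05B2.4 and H25K10.1 lie farthest above the line, ZK1025.2 and ZK1025.8 farthest below it.

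With centred arrays, the pair mean was higher in preparations 1 and 2 than in 3 and 4 for 42 of the 58 genes (72.4%), with a median difference of 0.24. Over all features this held for 49.7%, with a median difference of -0.004. Of the 58 genes, 6 differed by more than 1 in either direction. H25K10.1 averaged 4.03 in preparations 1 and 2 and 1.96 in 3 and 4, a difference of 2.07 (SE 0.45, limma adjusted p = 0.516). F55G11.2 averaged 3.24 in preparations 1 and 2 and 1.80 in 3 and 4, and the adjusted p was 0.620. K05B2.4 differed by 2.75 (SE 1.15, limma adjusted p = 0.720), mostly from preparation 2. C02E7.6 averaged 3.79 in preparations 1 and 2 and 2.31 in 3 and 4, a difference of 1.48 (SE 0.71, limma adjusted p = 0.743), with preparation 3 alone low. ZK1025.8 and ZK1025.2 ran the other way, by -1.04 and -1.17. The spread of the arrays moves with this contrast, since array 2 had the widest distribution and array 4 the narrowest. With the arrays scaled to a common spread, 7 of the 58 genes (12.1%) were higher in preparations 1 and 2, with a median difference of -0.48, and with quantile normalization 20 (34.5%) were, with a median of -0.15. The direction for the set as a whole thus changed with the scaling. H25K10.1 (1.14 when scaled), F55G11.2 (0.72) and K05B2.4 (1.52) kept theirs, and so did ZK1025.8 (-2.33) and ZK1025.2 (-2.47). The difference of C02E7.6 shrank to 0.28 when scaled.

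**Figure D4:**
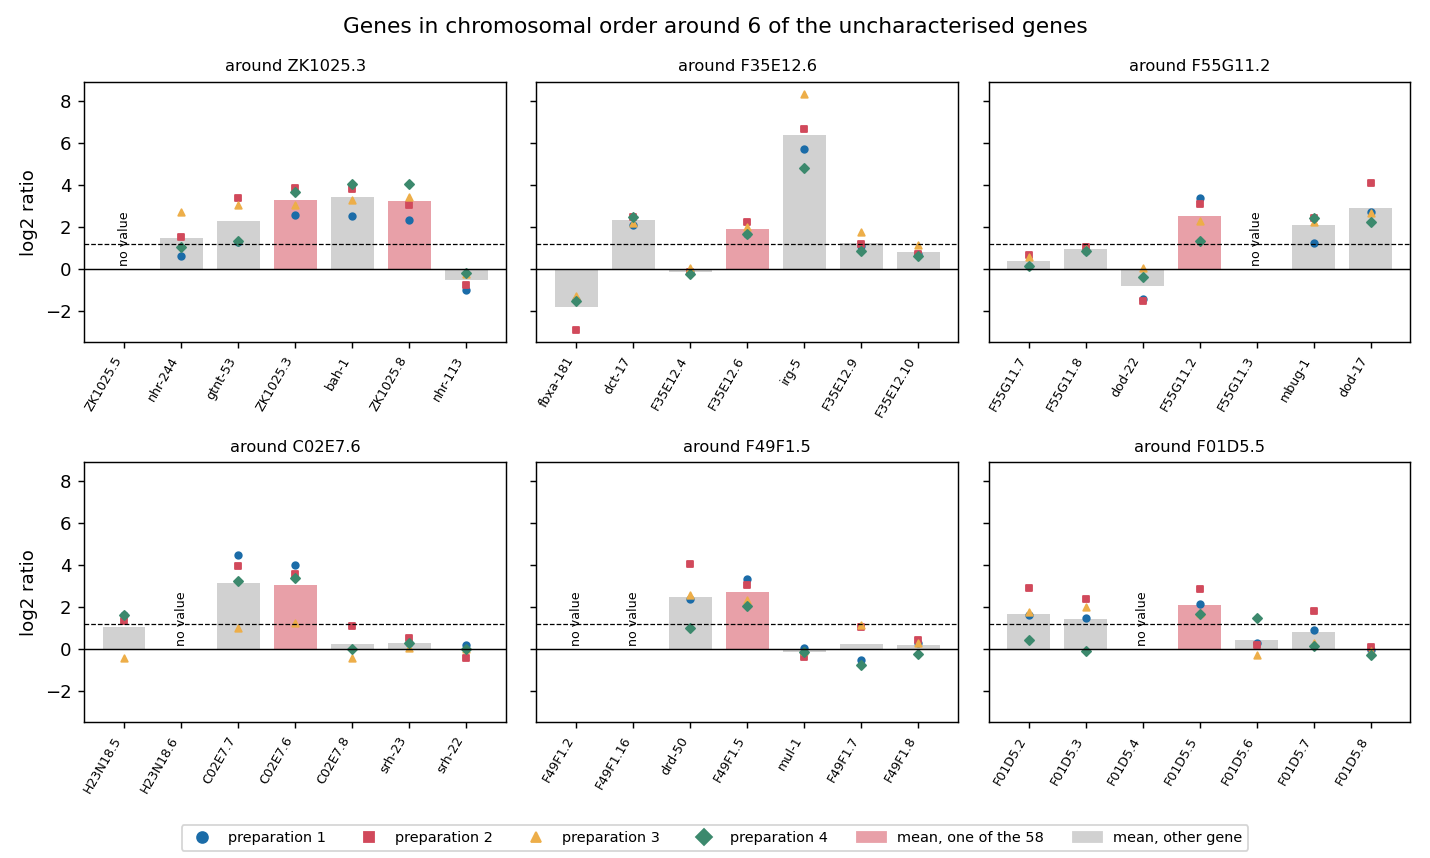
Mean log2 ratio (bars) and the values of the 4 preparations (symbols) for genes in their order along the chromosome, 3 to each side of 6 of the 58 genes; red bars belong to the 58 genes, grey bars to other genes, and genes without a probe here are marked. The dashed line is the threshold of 1.2. ZK1025.3, bah-1 and ZK1025.8 stand side by side at similar heights, while irg-5 rises far above its neighbour F35E12.6.

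The values of genes next to the 58 genes were not used to choose them. In the gene order of RefSeq assembly WBcel235, 81 first neighbours outside the set had a value on every array, with a median mean log2 ratio of 0.16, beside 0.03 for the first neighbours of all other sequence-named genes. Of these 81 neighbours, 5 (6.17%) lay above 1.2 on every array, beside 115 of 6876 (1.67%) for the other sequence-named genes and 235 of 14563 (1.61%) of all genes. Among the first neighbours of the 177 genes with a name that passed the rule, leaving out those genes themselves, 5 of 251 did (1.99%). The median over these 251 neighbours was 0.14, near that of the neighbours of the 58 genes. Most of the neighbours of the 58 genes were thus not above 1.2 on every array, though 51 of 81 (63.0%) had a mean above 0. This held for 148 of 251 neighbours (59.0%) of the 177 genes with a name. It held for 52.2% of the neighbours of other sequence-named genes, among which genes of that same group were not left out. The 5 high neighbours are irg-5 beside F35E12.6, bah-1 between ZK1025.3 and ZK1025.8, gtnt-53 beside ZK1025.3, pmp-1 beside C44B7.7 and cyp-29A2 beside T19B10.2. pmp-1 encodes a peroxisomal membrane transporter and was at 1.65 ± 0.15, and cyp-29A2, a cytochrome P450 gene, was at 1.48 ± 0.15. The stretches described next were chosen after their values were seen.

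The densest stretch was that of clone ZK1025 on chromosome I. Between ZK1025.3 and ZK1025.8 lies bah-1, a gene named for the absence of bacterial biofilm on the head of mutants. It had 2.51, 3.83, 3.27 and 4.06 (3.42 ± 0.69). These values lay between those of both neighbours in preparations 1, 2 and 3 and just above them in preparation 4. On the other side of ZK1025.3, gtnt-53 had 1.29, 3.37, 3.05 and 1.34 (2.27 ± 1.10). The next gene, nhr-244, which encodes a nuclear hormone receptor, had 0.59, 1.53, 2.70 and 1.03 (1.46 ± 0.91). nhr-113, just beyond ZK1025.8, ended the high stretch at -0.56 ± 0.40. Preparation 1 was the lowest value of each gene named in this stretch.

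F35E12.6, on chromosome V, had 1.68, 2.24, 2.00 and 1.64 (1.89 ± 0.28) and lies beside irg-5, an infection response gene. irg-5 had 5.73, 6.65, 8.33 and 4.81 (6.38 ± 1.5). dct-17, a gene listed among those controlled by the transcription factor DAF-16, lies 2 places to the other side, with 2.06, 2.49, 2.17 and 2.48 (2.30 ± 0.22). F35E12.4, which lies between dct-17 and F35E12.6, was at -0.14 ± 0.13. A gene near 0 thus lay between 2 genes that were high on every array.

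F55G11.2, on chromosome IV, had 3.39, 3.08, 2.30 and 1.30 (2.52 ± 0.93). On one side of it 2 genes were also high on every array, mbug-1 at 2.08 ± 0.56 and dod-17 at 2.91 ± 0.81. dod-22, next to it on the other side, was at -0.83 ± 0.77; dod genes are named as lying downstream of DAF-16. The neighbours in this stretch thus stood on both sides of 0.

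C02E7.6 and its neighbour C02E7.7 gave matching values. C02E7.7 had 4.49, 3.93, 1.00 and 3.21, beside 4.02, 3.56, 1.22 and 3.40 for C02E7.6. Both were lowest in preparation 3, and C02E7.7 missed the rule by that value alone. F49F1.5 lies beside drd-50, which had 2.39, 4.02, 2.55 and 1.00 (2.49 ± 1.24). mul-1, on the other side of F49F1.5, was at -0.16 ± 0.18.

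Clone F01D5 on chromosome II carries a pair of genes of the set. F01D5.1 had 2.36, 2.36, 2.00 and 2.12 (2.21 ± 0.18), and F01D5.5 had 2.15, 2.83, 1.70 and 1.67 (2.09 ± 0.54). Between them, F01D5.2 had 1.59, 2.88, 1.74 and 0.41 and F01D5.3 had 1.46, 2.397, 2.01 and -0.12. Preparation 4 kept both of these below the threshold while F01D5.1 and F01D5.5 passed it. Clone K08D8 on chromosome IV carries K08D8.6, with 1.45, 2.60, 2.44 and 1.26 (1.94 ± 0.68), and K08D8.4, with 1.42, 1.54, 1.58 and 1.35 (1.47 ± 0.10). K08D8.5, next to K08D8.4, was at 0.68 ± 0.35, and K08D8.3, on its other side, at -0.18 ± 0.42. With ZK1025, these 3 clones held 7 of the 58 genes, and the other 51 lay on 51 clones of their own.

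Most other genes of these clones were not high. On the 54 clones that carry a gene of the set, 280 other genes had a value on every array, with a median mean log2 ratio of 0.17. Of these, 7 (2.50%) lay above 1.2 on every array, beside 235 of 14563 (1.61%) of all genes. The 7 include the 5 high first neighbours named above. Some first neighbours were low. C45B2.3, next to C45B2.2 on chromosome X, had -1.89, -3.40, -3.02 and -2.11 (-2.60 ± 0.72), beside 2.89, 3.13, 2.78 and 1.44 for C45B2.2. slc-36.5, next to C44B7.7, was at -1.89 ± 0.39, and B0238.9, next to Y49G5A.1, at -1.34 ± 0.088. C45B2.2 was chosen as high on every array and C45B2.3 was named for its low mean, so the distance between them follows from these choices. Probes of neighbouring genes can read each other's transcripts where the genes are similar, and this was not tested, since probe sequences were not analysed here.

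**Figure D5:**
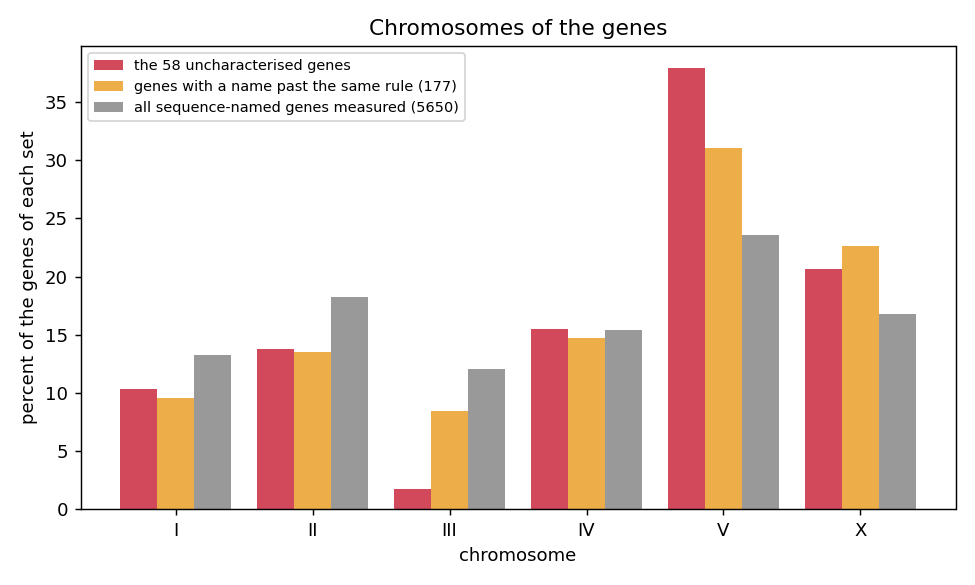
Percent of genes on each chromosome among the 58 genes (red), the 177 genes with a name that passed the same rule (yellow) and all 5650 sequence-named genes measured (grey). Chromosome V holds 37.9% of the 58 genes and chromosome III 1.72%.

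Chromosome V, which holds many large gene families of the worm, carried 22 of the 58 genes (37.9%), beside 23.6% of all sequence-named genes measured. Chromosome X carried 12 (20.7%, beside 16.7%), IV carried 9 (15.5%, beside 15.4%), II carried 8 (13.8%, beside 18.2%) and I carried 6 (10.3%, beside 13.3%). Chromosome III carried 1 gene, K12H4.7 (1.72%, beside 12.02%), with 1.61, 2.02, 1.33 and 1.55. The genes with a name that passed the same rule had 31.1% on chromosome V and 8.47% on III. The 138 sequence-named genes below -1.2 on every array had 30.4% on V and 10.14% on III. These shares rest on few genes and were not tested.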

How the data were processed

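RNA of 4 wild-type L3 preparations was measured on 2-colour arrays against a mixed reference. The authors deposited log2 ratios of the channels, with array medians between -0.03 and 0.02; no source used here gives their background correction, normalization or filters, and how far signals stood above background is unknown. Of 21632 probes, 16450 were paired with 1 gene by GEO's platform annotation, and 16360 had their symbols updated through Entrez numbers to RefSeq assembly WBcel235 (90 kept theirs). Arrays were median-centred, and a gene's probes were averaged. Values were present for 21058 to 21472 probes per array, and the arrays correlated at 0.620 to 0.723 over all probes (Pearson). The build of the probes is not given, so the reference served for names, gene class, chromosome and gene order. Neighbours are the adjacent protein-coding genes or pseudogenes.

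The month contrast was tested with limma 3.58.1 in R 4.3.3 on features with a value on every array. Nothing says that preparations came from separate cultures, so p-values measure only the spread between them. In simulated data with an SD of 0.2 the fit called 43 of 50 2-fold changes among 19201 genes. An SD of 0.2 lies below the median SD of 0.35 over all sequence-named genes. With each gene's own SD over the 4 arrays the fit called 0 of 50 changes of 16-fold. That SD holds any difference between the months and is itself estimated from 4 values. This setting can therefore understate what the test finds, and neither setting gives its power in these data. Python 3.11.15 and pandas 2.3.3 were used elsewhere. The members, the rule for named genes (the 12 highest means, the 3 largest and 3 smallest SDs, genes at the threshold, genes with several probes, and the 5 highest and 3 lowest neighbours, others being chosen after their values were seen) and all lists were chosen with earlier results of these data known. Comparisons of protein and promoter sequences were planned but are not analysed here.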

Additional observations from a re-analysis of the deposited data

Results flagged for a closer look

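In 1 of the 58 genes the gap between a single preparation and the nearest other value was large as a share of the range. F32H5.1, on chromosome V, had 1.34, 2.405, 1.26 and 1.36 in preparations 1 to 4 (1.59 ± 0.54), and the gap between preparation 2 and the nearest other value took up 0.919 of the whole range, above Dixon's critical value for 4 samples. In groups of 4 values that were not chosen by their height, chance alone marks about 1 in 20. The 58 genes were chosen on these same values and could hold no low preparation, so that rate cannot be read against them. The share was 1.72% among the 58 genes, beside 6.52% of all 19201 features. In absolute size 3 genes had wider gaps, K05B2.4 (3.79), C02E7.6 (2.18) and C45B2.2 (1.34), against 1.05 for F32H5.1. Preparation 2 also gave the highest value of 36 of the 58 genes and had the widest distribution of log2 ratios over all probes; the part of that spread in the value was not tested.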

How the results depend on the processing

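The count of 58 genes depended on the threshold: 90 genes passed at 1 and 27 at 1.5. It was 58 with values as deposited (56 shared with the set), 62 with arrays scaled to a common spread (50 shared), 66 with quantile normalization (51 shared), 58 with the median of a gene's probes, 56 with every probe above the threshold and 59 where 3 arrays with a value were enough. Scaling dropped the steady genes F45D3.2, K04A8.1 and T11G6.4, with AC3.5, C26B9.5, C45E5.1, K08D8.4 and T19B10.2. Without 1 preparation the count was 63 to 87. For the 58 genes the median of the means lay between 1.89 and 2.17 over these settings. No gene changed direction or moved by 1 SD, but the rule and the small number of arrays largely fix this. Every value lay above 1.2, and leaving out 1 of 4 values cannot move a mean by 1 SD. The month contrast called 0 genes with scaled, quantile and 3-array values, and 0 to 123 without 1 preparation: the 123, K05B2.4 among them, came without preparation 1, where preparation 2 alone stands for its pair and is assumed to vary like the others. The median difference between these pairs over the 58 genes (0.24) reversed in alternatives added after the data were seen, to -0.48 with scaled arrays and -0.15 with quantile normalization. The median of first neighbours (0.16) was 0.14 to 0.24 without 1 preparation (0.24 without preparation 4), 0.18 for second neighbours and, also added later, 0.18 for genes 3 places away, 0.17 on the same clone and 0.063 for the 7 neighbours on another clone. Alternatives on protein similarity, on neighbours without a similar protein and on promoter motifs were not run. No paired analysis was possible because there is 1 group of samples. The number of arrays limits the precision.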
